A study of Homo sapiens with 4 samples.

Results

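NORAD, OIP5-AS1, TUG1, H19 and DANCR are long noncoding RNAs, transcripts that are studied for what the RNA itself does rather than for a protein product. Their Argonaute-bound sites were read from a deposited list of PAR-CLIP regions on the human genome build hg19. A region belonged to one of the 5 RNAs when it overlapped that gene's hg19 interval on the gene's own strand. In all, 167 of the 211947 regions of the list did so. NORAD held 32 of them, OIP5-AS1 54, TUG1 73, H19 2 and DANCR 6.

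The libraries came from HEK293, an established human embryonic kidney cell line. The 3 AGO1 libraries were made from cells that stably expressed His/FLAG/HA-tagged protein, given 200 µM 4-thiouridine for 16 h and precipitated through the FLAG tag. The 1 AGO2 library was made from HEK293 cells given 100 µM for 16 h and precipitated with an antibody to AGO2 itself; its own labels name no tag, whereas the series text describes tagged lines for both proteins. All cells were crosslinked at 365 nm, so every group carried the uridine analogue and no group was left without crosslinking. The list gives 1 value per region for a pooled library set, so AGO1 and AGO2 cannot be told apart, depth per library is unknown, no value below has a replicate error, and no test between samples could be made. Which of these libraries the pooled set holds is not stated. The score of a region is a whole number from the authors whose meaning is not stated. It is used here to order and describe regions within the list.

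Argonaute proteins carry microRNAs, short RNAs that find their targets mainly by pairing through a seed, bases 2 to 8 from the 5′ end. In PAR-CLIP, 4-thiouridine in the RNA is crosslinked to the bound protein, and the recovered fragments mark where the protein sat. Long noncoding RNAs of the cytoplasm share their compartment with Argonaute. Some are known to pair with microRNAs, some to bind other proteins, and some are precursors of small RNAs that Argonaute itself takes up. Where in the cell these 5 RNAs lay was not measured here.

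Small RNAs tied to these loci are shown first, because in a locus that encodes a microRNA an Argonaute region can hold the microRNA itself or a site on the host RNA, and the list does not say which. OIP5-AS1, the human counterpart of Cyrano, is known for an extensively paired site for miR-7. The H19 gene contains the hairpin of miR-675, and the DANCR gene contains the hairpin of miR-4449 as well as the small nucleolar RNA SNORA26, per the RefSeq names for GRCh38.p14. The mature sequences below are RefSeq's for that build, with the seed in capitals.
hsa-miR-7-5p: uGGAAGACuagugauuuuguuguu
hsa-miR-675-5p: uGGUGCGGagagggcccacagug
hsa-miR-675-3p: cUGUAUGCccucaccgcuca
hsa-miR-4449: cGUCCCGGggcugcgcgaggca
No seed is shared among these 4. The hg19 sequence under the regions was not used here, so no region below was matched to a seed, and the hairpins were not placed on hg19.

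Regions were densest in TUG1 and NORAD and sparsest in DANCR and H19, with OIP5-AS1 in between. Per kb of genomic interval, TUG1 had 7.49 regions, NORAD 5.99 and OIP5-AS1 2.10, against 0.757 in DANCR and 0.752 in H19. The order of the first pair rested on regions of score 1 and 2: at scores of 3 or more NORAD had 5.43 regions per kb and TUG1 4.41. By summed score per kb the order of the first 3 differed. NORAD stood at 189.0, TUG1 at 50.9 and OIP5-AS1 at 34.0, while DANCR had 3.66 and H19 0.752. NORAD is known as an unspliced RNA and the other 4 as spliced, and intervals of spliced genes include introns, so these densities are per kb of genome and not of mature RNA. The amount of each RNA in the cells was not measured, so many regions and much RNA cannot be told apart here. Regions covered 33.7% of the NORAD interval, 33.3% of TUG1, 8.18% of OIP5-AS1, 3.24% of DANCR and 2.11% of H19.

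**Figure D1:**
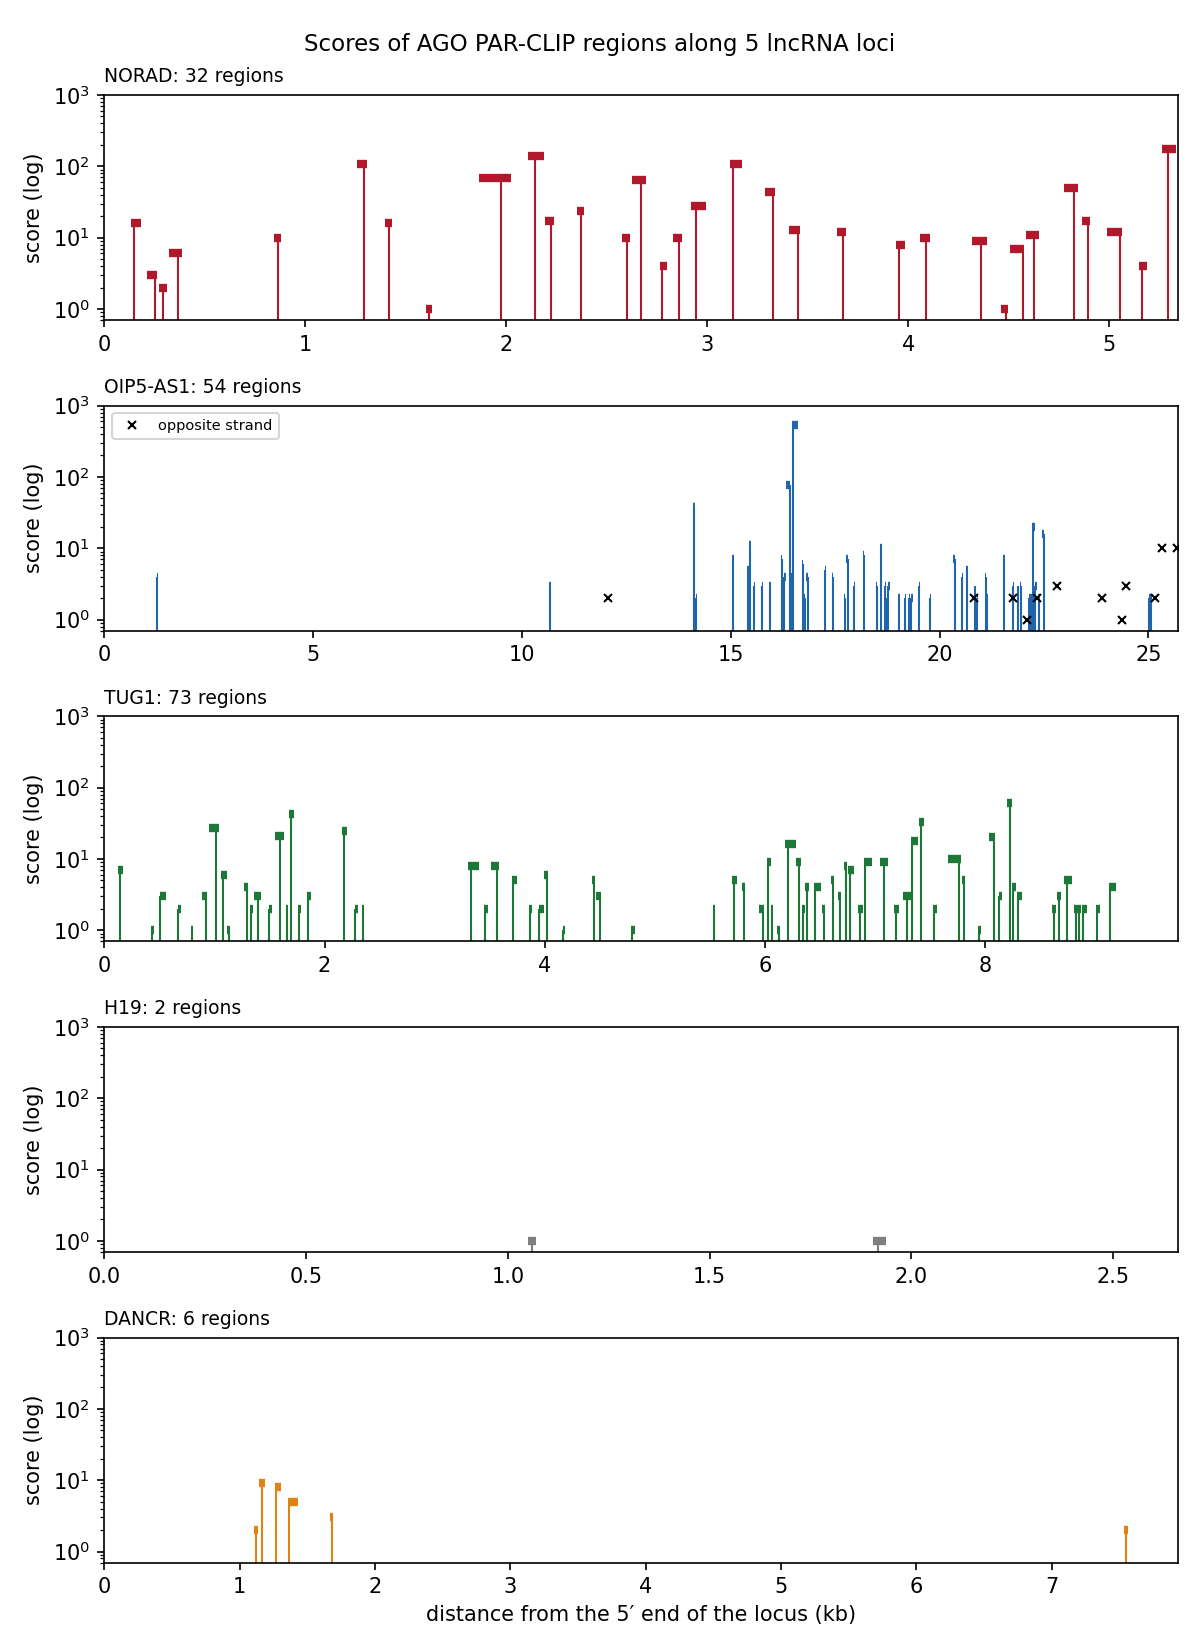
Score of each region (log axis) against distance from the 5′ end of the locus in kb, 1 panel per gene; horizontal bars span the region, stems mark its 1-nt position and crosses are regions of the opposite strand. NORAD has regions from near its 5′ end to near its 3′ end, and TUG1 from nt 124 to nt 9192 of 9748. OIP5-AS1 is marked mostly from nt 14130 on with 1 region at 535, and H19 by 2 regions of score 1. DANCR has 5 regions near its 5′ end and 1 near its 3′ end.

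On the opposite strand of the same intervals there was no region at NORAD, TUG1, H19 or DANCR, and there were 12 at OIP5-AS1 beside its own 54. Flanks of the length of each locus on the same strand held no region beside NORAD or H19. Beside TUG1 they held 2, both on the 5′ side with a summed score of 4, and beside OIP5-AS1 they held 10 on the 5′ side and 2 on the 3′ side, none with a score above 8. The 10 lay within 5000 nt of the interval, where the density of 2.00 regions per kb was close to the 2.10 of OIP5-AS1 itself, although their summed score was 29 against 873. Among genes on either strand that do not overlap OIP5-AS1, RefSeq names CHP1 as the nearest on the 5′ side and NUSAP1 on the other. On the 3′ side of DANCR, 4 regions within 5000 nt had a summed score of 58, against 29 for all 6 regions in DANCR, and the highest of them was 51. The nearest gene named there, on either strand, is ERVMER34-1. Regions of the flanks were not assigned to genes.

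**Figure D2:**
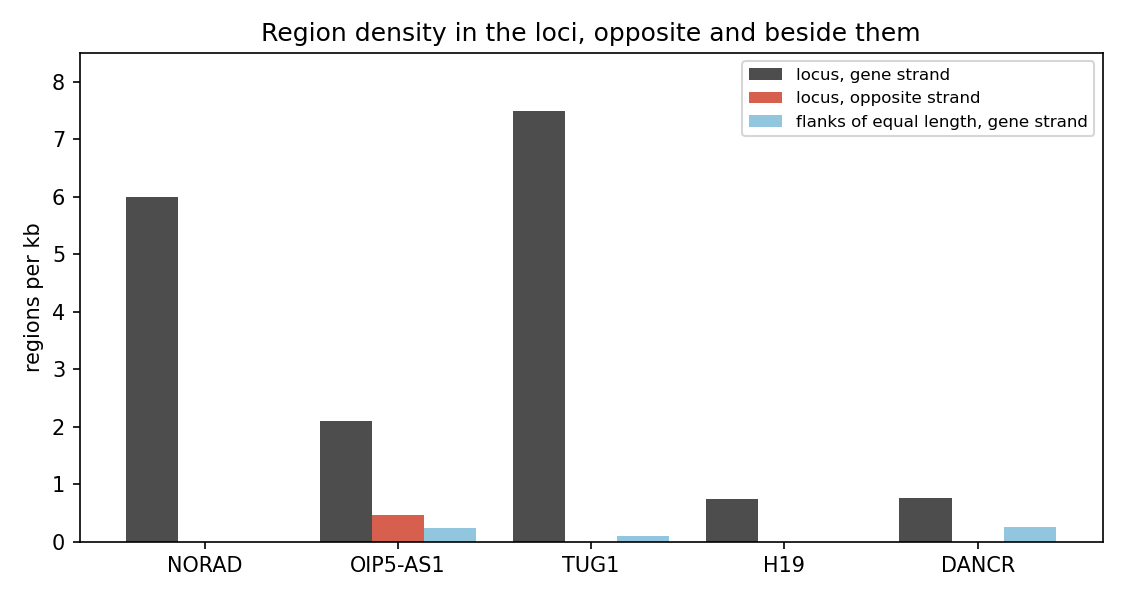
Regions per kb in each locus on the gene's strand, on the opposite strand, and in flanks of equal length on both sides (gene strand). Opposite-strand bars appear at OIP5-AS1 (12 regions), and the tallest bars are TUG1 at 7.49 and NORAD at 5.99.

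NORAD, abundant in many human cells, is known for its part in keeping chromosome number stable. Its interval on chromosome 20, minus strand, runs from 34633544 to 34638882, a length of 5339 nt, and the RefSeq gene record is 5343 nt long. The median score of its 32 regions was 12 (interquartile range 7.75 to 32.0; 95% interval of the median, 9 to 24, counting error only), against 3 over all regions of the list. A score of at least 10 was held by 22 of the 32 (68.8%, Wilson 95% interval 51.4 to 82.0), beside 11.0% of the whole list. A score of at least 100 was held by 4 (12.5%, 4.97 to 28.1), beside 0.264% of the list. Both shares and their intervals lie above the list's shares, and regions of 1 RNA in a pooled list are not independent replicates.

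The 4 highest NORAD regions were spread over the RNA and did not adjoin each other. The highest, with a score of 176, spanned 34633551 to 34633619, which is nt 5264 to 5332 counted from the 5′ end and so stops 7 nt short of the annotated 3′ end of the RNA. Next came a region of 80 nt at 34636696 to 34636775 with a score of 138. Scores of 108 were given to a region of 59 nt at 34635712 to 34635770 and to one of 49 nt at 34637578 to 34637626. In the list as a whole these scores ranked 194, 302 and 479, the last for both regions of score 108. These 4 regions lay at nt 1290, 2143, 3129 and 5293 by their 1-nt positions.

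Between these peaks lower regions were found in every bin of NORAD, with gaps between them. The RNA was cut into 5 bins of equal length, numbered from the 5′ end and filled by the 1-nt positions. Bin 1 held 5 regions with scores of 16, 3, 2, 6 and 10, a summed score of 37. Bin 2 held 4 regions with a summed score of 193. Among these were a region of score 108 at nt 1290 and the widest NORAD region, 156 nt at 34636862 to 34637017 with a score of 68. Bin 3 held 9 regions and the highest sum, 404, or 40.1% of the NORAD score. Bin 4 held 5 regions with a sum of 87 and none above 44, and bin 5 held 9 regions with a sum of 286. The 50% of the interval toward the 3′ end held 56.2% of the regions (Wilson 95% interval 39.3 to 71.8) and 51.9% of the score, so the interval of the share includes an even split. Neighbouring regions were a median of 85 nt apart from edge to edge, and the longest stretch without a region was 458 nt.

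NORAD regions were also wide. Their median width was 50.5 nt (95% interval 42 to 64), against 32 nt in the list, and their range was 32 to 156 nt. Width and score were related across the 32 regions (Spearman's rho = 0.495) as across the whole list (0.453), a description over regions that share 1 RNA. When regions no more than 1000 nt apart were joined, the 32 regions formed 1 run, and no region outside the interval joined it. Its summed score of 1007 ranked 16 among the 76042 runs outside the mitochondrial chromosome. By median score it ranked 33 among the 4318 such runs of at least 10 regions, and by number of regions 476.

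**Figure D3:**
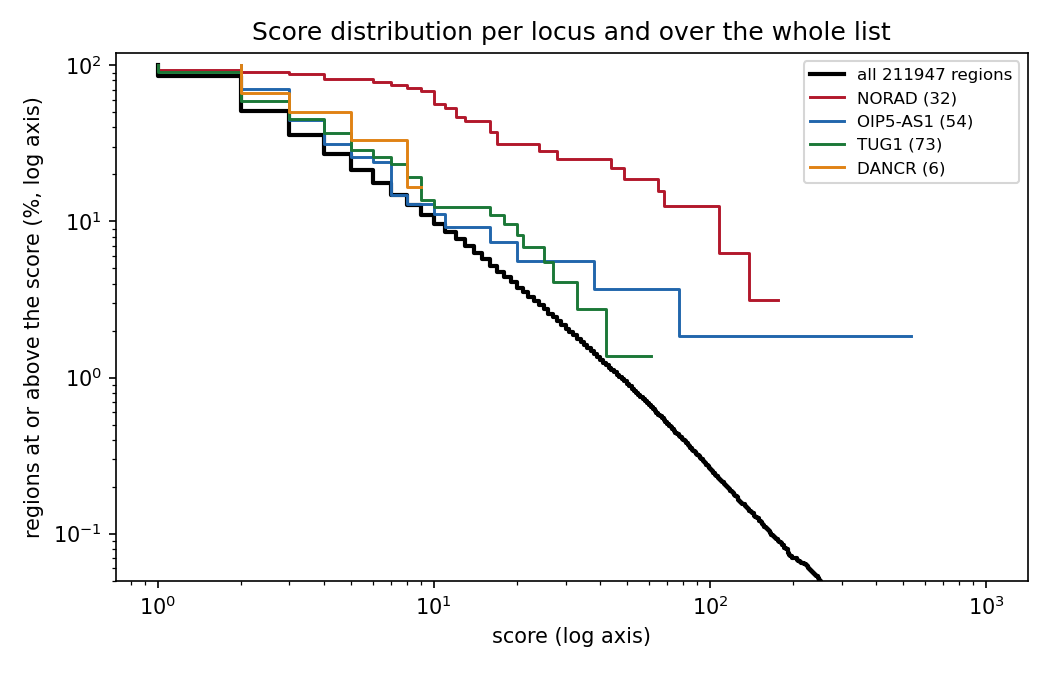
Percentage of regions (log axis) at or above a given score (log axis) for the whole list and for NORAD, OIP5-AS1, TUG1 and DANCR, with the number of regions in brackets; the vertical axis stops at 0.05%, so the end of the list's curve is not drawn. The NORAD curve runs above the others over scores of 5 to 100, while OIP5-AS1 and TUG1 lie near the list at a score of 10 and above it at 20.

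OIP5-AS1 had the highest score of any region in the 5 loci, and that region alone held most of the score of the gene. It spanned 41592671 to 41592823 on chromosome 15 (plus strand), was 153 nt wide and had a score of 535, which ranked 27 in the list and was reached by 0.0127% of regions. It carried 61.3% of the summed score of 873. The region with the next highest score in OIP5-AS1, 77, lay just before it at 41592533 to 41592630, 98 nt wide, and the top score was 6.95 times as high. Without the top region the summed score of the locus was 338. The median score in OIP5-AS1 was 3 (95% interval 3 to 4), the same as in the list.

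Close around the top region other regions were frequent, and all but the region of score 77 had low scores. Within 1000 nt of its 1-nt position there were 12 other regions, with a median score of 4. Only a 28-nt region of score 4 stood between the regions of score 77 and 535, with gaps of 1 and 11 nt. On the 3′ side a gap of 77 nt preceded a region of score 6. Separate sites and parts of a single crosslinked stretch were not told apart here. Whether the miR-7 site lies under any of them was not analysed here.

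**Figure D4:**
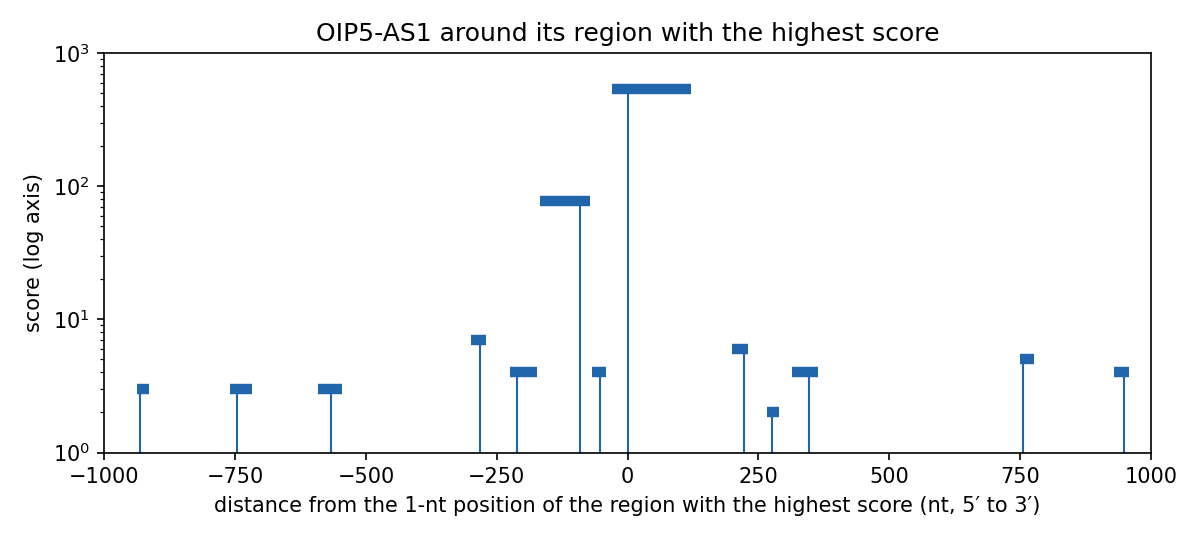
Scores (log axis) of the 13 OIP5-AS1 regions within 1000 nt of the 1-nt position of the top region; horizontal bars span each region and stems mark its 1-nt position. The region of score 535 and the region of score 77 stand beside each other, and the other 11 have scores of 2 to 7.

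Along OIP5-AS1 the regions were gathered in 1 stretch. The interval runs from 41576203 to 41601901 and is 25699 nt long, and RefSeq's current gene record is 4943 nt longer. A run of 50 regions from 41590310 to 41598712, 8403 nt, held 92.6% of its regions and 98.7% of its score, with a density of 5.95 regions per kb. Before that run lay 2 regions, with scores of 4 and 3, and after it 2 with scores of 2. The 50% of the interval toward the 3′ end held 52 of the 54 regions (96.3%, Wilson 95% interval 87.5 to 99.0). The run opened with a region of 38 nt and score 38 at 41590310 to 41590347. It closed with regions of score 20 at 41598428 to 41598483 and score 16 at 41598654 to 41598712. Those, with the regions of 535 and 77, were the 5 highest in OIP5-AS1. In total 7 of the 54 regions reached a score of 10 (13.0%, 6.42 to 24.4), near the 11.0% of the list. A score of 100 was reached by 1 of them (1.85%, 0.328 to 9.77), beside 0.264% of the list. Which parts of the interval are exon or intron was not analysed here. The summed score of the run, 862, ranked 26 among the 76042 runs, and 535 of it came from the top region.

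Regions of the opposite strand lay mostly toward the 3′ end of OIP5-AS1. OIP5-AS1 is named as the antisense RNA of OIP5, a protein-coding gene that overlaps it in RefSeq. When the interval was cut into the same 5 bins of equal length, bin 5 held 11 of the 12 opposite-strand regions and 17 regions of OIP5-AS1 itself. In the last 3207 nt, beyond nt 22492, the opposite strand held 7 regions with a summed score of 31. The OIP5-AS1 strand held 2 there, with a summed score of 4. The opposite-strand regions were not assigned to OIP5. The highest on the opposite strand, both with a score of 10, lay at 41601518 to 41601555 and at 41601885 to 41601908 on the minus strand, the last reaching past the end of the interval. Regions of both strands overlapped in 2 places, by 18 nt and by 2 nt, each a region of score 3 on the OIP5-AS1 strand with one of score 2 opposite. The 2 OIP5-AS1 regions concerned were 3.70% of its regions, and 0.379% of the whole list overlapped a region of the other strand.

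TUG1, first described as an RNA induced by taurine in the retina, held the most regions of the 5 genes, with scores whose median was that of the list. RefSeq now classes the gene as protein coding. The 73 regions lay in an interval of 9748 nt on chromosome 22, plus strand, that runs from 31365634 to 31375381. Their median score was 3 (95% interval 2 to 4). A score of 1 was held by 7 (9.59%), beside 14.1% of the list, and a score of 2 by 23 (31.5%), beside 35.3%, while 10 reached a score of 10 (13.7%, Wilson 95% interval 7.61 to 23.4), beside 11.0% of the list. None reached 100, and 0 of 73 allows a share of up to 4.11%. The highest score, 61, belonged to a region of 41 nt at 31373835 to 31373875. It was followed by 42 at 31367310 to 31367357, 33 at 31373035 to 31373078, 27 at 31366583 to 31366671 and 25 at 31367788 to 31367838. The widest TUG1 region, 114 nt at 31373299 to 31373412, had a score of 10.

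The score of TUG1 was spread over many regions, with the lowest shares in bins 2 and 3 of the 5. Of its summed score of 496, the top region carried 12.3% and the 5 highest 37.9%. In NORAD the 5 highest carried 59.4% and in OIP5-AS1 78.6%. By the same 5 bins, bin 1 of TUG1 held 18 regions and 26.6% of the score, bin 2 held 8 and 10.9%, and bin 3 held 9 and 5.85%, with no score above 6. Bin 4 held 23 regions and 32.7% of the score, and bin 5 held 15 and 24.0%. The longest stretch without a region was 944 nt, yet neighbours were a median of 38.5 nt apart, and 68 of the 73 regions (93.2%) had another within 100 nt on their strand, beside 53.4% of the list. That share was 84.4% in NORAD (27 of 32), 74.1% in OIP5-AS1 (40 of 54), 66.7% in DANCR (4 of 6) and 0% in H19 (0 of 2). Of the 72 gaps in TUG1, 23 were of at most 20 nt. Width and score were related across the 73 regions (Spearman's rho = 0.684, a description). The run that held TUG1 also took in the 2 regions just upstream, of scores 3 and 1. With 75 regions it ranked 17 of 4318 by number of regions, and with a summed score of 500 it ranked 154 of 76042.

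**Figure D5:**
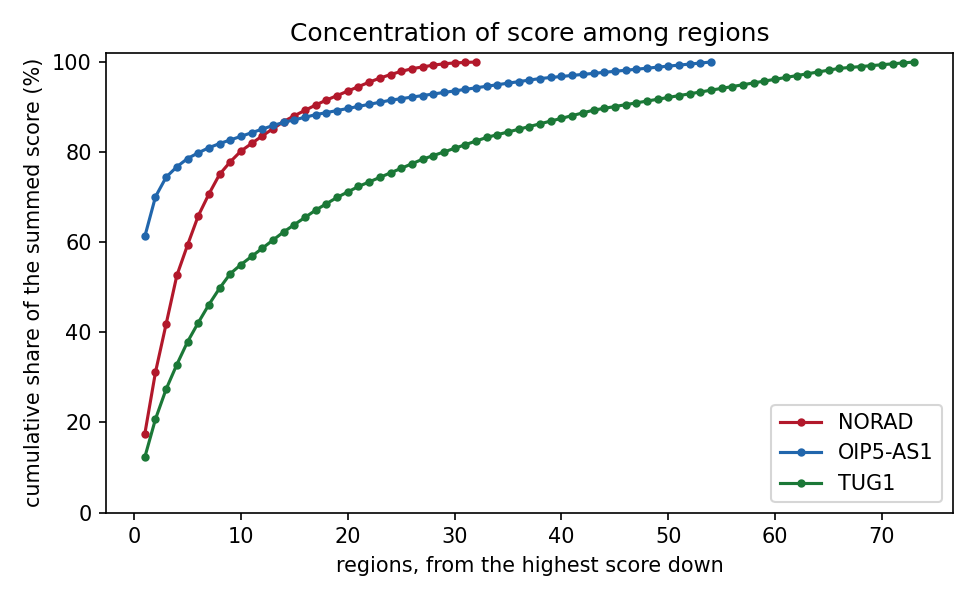
Cumulative share of the summed score in percent against the number of regions, taken from the highest score down, for NORAD, OIP5-AS1 and TUG1. OIP5-AS1 passes 50% with 1 region, NORAD with 4 and TUG1 with 9.

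H19, an imprinted RNA expressed from the maternal allele and the host of miR-675, was marked at the lowest level the list gives. Its interval, chromosome 11 from 2016406 to 2019065 on the minus strand, held 1 region of 34 nt at 2017128 to 2017161 and 1 of 22 nt at 2017996 to 2018017. Both had a score of 1, a score that 14.1% of the list shares. OIP5-AS1 and TUG1 also held regions of 22 nt. Over the whole list the lower quartile of width was 25 nt. The place of the narrower H19 region relative to the hairpin was not analysed here. The interval of 2660 nt is shorter than RefSeq's current gene record of 6091 nt, and the flanks of 5000 nt on both sides held no further region on the strand.

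DANCR, an RNA named for opposing differentiation and a host gene of SNORA26 and miR-4449, had 6 regions in the 7930 nt of its interval, chromosome 4 from 53578615 to 53586544 on the plus strand. The 5′ group of 5 lay within 584 nt, from 53579722 to 53580305. Its scores were, from the 5′ end, 2, 9, 8, 5 and 3. The region of score 9 spanned 53579755 to 53579804, that of score 8 spanned 53579873 to 53579916, and the widest, 78 nt with a score of 5, spanned 53579968 to 53580045. The remaining region, of score 2, lay 5845 nt further on at 53586151 to 53586181. None of the 6 reached a score of 10, and 0 of 6 allows a share of up to 50%, so the 11.0% of the list cannot be told from it. The 5′ group held 27 of the summed score of 29. Its position relative to SNORA26 and to the hairpin of miR-4449 on hg19 was not analysed here.

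As a set, the 167 regions were 0.0788% of the list and held 0.207% of its summed score. A score of at least 10 was held by 39 of them (23.4%, Wilson 95% interval 17.6 to 30.3), beside 11.0% of the list, but 22 of the 39 were in NORAD. Without NORAD the share was 12.6% (8.01 to 19.2), with an interval that includes the list's share. The 1-nt position inside each region, whose meaning the sources used here do not give, had another mean in NORAD than in OIP5-AS1 and TUG1. On a scale from 0 at the 5′ edge to 1 at the 3′ edge its mean was 0.592 in NORAD (SD over regions 0.188, n = 32), 0.446 in OIP5-AS1 (0.213, n = 54) and 0.423 in TUG1 (0.223, n = 73). NORAD and H19 are on the minus strand and the other 3 on the plus strand, and the mean was 0.420 in H19 (0.0796, n = 2) and 0.370 in DANCR (0.196, n = 6). The difference between genes was not tested.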

How the data were processed

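The data were 1 deposited list of regions from a series of 4 PAR-CLIP libraries. Per the file headers, the regions are on hg19, belong to a library set called AGO_good and went through a filter with 0.05 in its name. Which of the 4 libraries that set pools is not stated. BWA 0.5.8c is listed, per the submitters' processing notes. The region caller and the unit of the score, a number from the authors deposited without explanation, are not given in the sources used. Coordinates are counted from 1, so region starts are 1 higher than the deposited ones.

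Members were regions with any overlap of the 5 hg19 intervals on the gene's strand. The members, the intervals and the thresholds (scores of 10 and 100, runs with gaps of at most 1000 nt) were chosen with earlier results of these data known. Regions named by position were the 5 of highest score and the widest in each locus; others named were chosen after their values were seen. Shares have Wilson 95% intervals and medians exact binomial ones, all of which cover counting error only. No test between samples was possible. RefSeq names matched all 5 genes. RefSeq records for GRCh38.p14 gave the overlapping and neighbouring genes, by their coordinates, and the record lengths. No region of the list was placed by RefSeq coordinates. Functions were tested on simulated regions. The software was scipy 1.17.1, matplotlib 3.10.9, pandas 2.3.3 and numpy 2.4.6 under Python 3.11.15. Alternatives changed the score minimum, the overlap rule, the interval edges, the flanks and the score ceiling.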

Additional observations from a re-analysis of the deposited data

How the results depend on the processing

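Of 185 alternatives for 51 values, 159 stayed within 1.5 times (counts, sums, densities, covered shares) or within the 95% interval (medians, other shares). The other 26 moved further. Some of the 159 could not move. All member regions lie wholly inside their intervals, so the stricter overlap rules left every gene-strand value unchanged. Counts of 0 on the opposite strand could not fall at higher score minimums. Orders between loci changed in several measures. TUG1 had more regions per kb than NORAD over all scores and fewer at scores of 3 or more (4.41 against 5.43). OIP5-AS1 had a higher summed score than TUG1, but a lower one with scores above 100 set to 100 (438 against 496) and without each locus' top region (338 against 435). NORAD had a larger covered share than TUG1 (33.7% against 33.3%), but a smaller one with intervals widened by 500 nt (28.4% against 30.8%). Median gaps at scores of 3 or more put OIP5-AS1 above NORAD (152 against 86 nt), not below it (84 against 85). They put TUG1 above DANCR (78.5 against 68 nt), not below it (38.5 against 68). Flank density was lower at OIP5-AS1 than DANCR (0.233 against 0.252 per kb), but higher with 5000-nt flanks (1 against 0.400). The 7 alternatives that leave out the top region or a locus were chosen after seeing the data. For OIP5-AS1, the summed score of 873 was 438 with scores above 100 set to 100 and 338 without its top region, and its 12 opposite-strand regions were 4 at scores of 3 or more. Weighted by score, its share in the 50% of the interval toward the 3′ end was 99.2%. For TUG1 at scores of 3 or more, there were 43 regions, 4.41 per kb, with a median gap of 78.5 nt, a median score of 5 and a median width of 45 nt. For H19 at scores of 2 or more, and of 3 or more, regions, summed score, density and covered share were all 0, and without 1 region its summed score was 1. The share of all members with a score of at least 10 (23.4%) was 12.6% without NORAD and 30.9% without TUG1; at thresholds of 5, 20 and 50 it was 43.7%, 12.6% and 5.39%, against 27.0%, 4.09% and 0.945% of the list. With flanks of 5000 nt in place of flanks of the locus' length, flank density was 1 against 0.233 per kb for OIP5-AS1, 0.200 against 0.103 for TUG1 and 0.400 against 0.252 for DANCR. Medians and gaps of H19 could not be computed at higher score minimums. Leaving out each library was not run, since the list has no value per library. No paired analysis was possible because no column belongs to a single library.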
